A study of Mus musculus with 12 samples.

Results

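The genes described here are 10 imprinted genes outside the Dlk1-Meg3 cluster: Igf2, H19, Grb10, Plagl1, Ndn, Gnas, Mest, Sgce, Peg3 and Zim1. They were found on the arrays by the gene name the array design gives each probe, leaving out control spots, which gave 10 of 37074 gene names and 31 of 56605 probes. Gnas had 9 probes, Mest had 4, Grb10, Plagl1 and Peg3 had 3 each, Igf2, H19, Zim1 and Sgce had 2 each, and Ndn had 1. The arrays measured RNA of haematopoietic stem cells taken directly from male mice. Marrow was enriched for Kit-positive progenitors, from which lineage-negative, Sca-1-positive, Kit-positive cells with the SLAM phenotype were sorted. One group received POL5551, which blocks CXCR4, the receptor that holds stem cells in the marrow, at 100 mg/kg per day by infusion for 2 weeks. G-CSF, the cytokine used to mobilise stem cells, was given as injections of 100 ug/kg at intervals of 12 h, 9 of them over 5 days or 4 over 2 days. The controls were sham-operated. The labels name no operation for the G-CSF mice and no injections for the sham mice, so handling and drug cannot be told apart there. The labels used here state neither strain nor age. Each of the 4 groups held 3 mice, numbered as separate animals, with 1 array per mouse, and that number limits the precision.

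Genomic imprinting leaves a gene active mainly from the copy inherited from one parent. Many imprinted genes act on growth and belong to a co-expressed network, which in mouse marrow is most active in quiescent long-term stem cells. In that setting Igf2 is a growth factor of the insulin family, H19 is the non-coding RNA beside it, Grb10 is an adaptor that restrains insulin and IGF receptors, and Plagl1 is a zinc finger transcription factor that regulates other members. Ndn (necdin) is a growth suppressor of the MAGE family, and Gnas encodes the stimulatory G protein subunit Gs alpha together with several alternative transcripts. Mest encodes a protein of the hydrolase fold, Sgce encodes epsilon-sarcoglycan, and Peg3 and Zim1 are zinc finger genes of one imprinted domain. H19, Grb10 in most tissues, and Zim1 are expressed from the maternal copy, whereas Igf2, Plagl1, Ndn, Mest, Sgce and Peg3 are expressed from the paternal one.

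A probe reads only the RNA it matches, so the following 60-base probes are shown to make clear which RNAs the values below come from. They are both probes of H19, 2 of Gnas and 1 each of Grb10, Sgce, Mest and Plagl1, 5′ to 3′, as given by the array design, with positions on mouse build mm9. The H19 probes lie at chr7:149762173-149762232 and chr7:149761492-149761551, both on the minus strand, and measure the RNA that carries no protein.
H19 A_30_P01026972: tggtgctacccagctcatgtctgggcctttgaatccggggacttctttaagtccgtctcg
H19 A_55_P2903297: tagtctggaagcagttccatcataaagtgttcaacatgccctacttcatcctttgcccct
The first Gnas probe lies across an exon junction in the Gs alpha coding sequence, at chr2:174167177-174167338, plus strand. The second lies upstream of it, at chr2:174159362-174159421, plus strand, in a cDNA clone of the locus.
Gnas A_52_P112188: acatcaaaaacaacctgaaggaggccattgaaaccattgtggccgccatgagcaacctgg
Gnas A_55_P2939538: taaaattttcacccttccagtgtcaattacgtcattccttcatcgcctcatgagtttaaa
The coding probes of Grb10 at chr11:11870574-11870633, minus strand, of Sgce across a junction at chr6:4641640-4644080, minus strand, and of Mest at chr6:30692160-30692219, plus strand, are nearer the 5′ end than the other probe of the same transcript.
Grb10 A_52_P40363: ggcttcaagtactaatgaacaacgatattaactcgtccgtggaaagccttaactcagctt
Sgce A_52_P27864: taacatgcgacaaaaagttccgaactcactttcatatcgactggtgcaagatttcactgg
Mest A_55_P2151868: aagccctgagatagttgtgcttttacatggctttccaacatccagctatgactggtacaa
The Plagl1 probe that represents the gene, at chr10:12848421-12848480, plus strand, holds 4 copies of CCACAG, in capitals, counted on the strand shown without overlap. It was 1 of 56605 probes with 4 or more copies (0.00177%), and the other member probes held 0. The unit was taken from this probe and no other unit was counted, so that share does not show the probe to be unusual.
Plagl1 A_55_P1961965: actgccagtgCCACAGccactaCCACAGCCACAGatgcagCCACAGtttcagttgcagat

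Levels are the log2 of the processed signal minus the array's 75th percentile, so 0 is the 75th percentile of that array. A level is compared only within a probe, except where stated. That percentile lay between 1638 and 5579 intensity units, and 75.3% to 85.6% of probes were well above background. Sham 1 stood apart. Its rank correlation with the other shams was 0.751 and 0.758, while within-group correlations between other arrays were 0.920 to 0.955. An off-tissue level was taken as the median over 1535 probes for olfactory, vomeronasal, taste and keratin-associated genes, which blood cells do not use. It was -5.17, -4.50 and -4.11 after POL5551, -3.97, -3.87 and -3.25 after 5-day G-CSF, -2.40, -2.73 and -2.60 after 2-day G-CSF, and -1.61, -3.30 and -3.45 in sham, with sham 1 the highest of all arrays. Of 16 markers of the sort and of stem cell identity, 16 were well above background on all 3 arrays of each treated group and 14 on all 3 sham arrays. Their summed signal, in multiples of the 75th percentile, was 71.8 to 74.3 after POL5551, 53.5 to 60.4 after 5-day G-CSF, 41.4 to 53.4 after 2-day G-CSF and 42.4 to 73.2 in sham. For 10 of 11 erythroid markers, those tested, the sum was 14 to 15.3 after POL5551, 8.08 to 10.3 after 5-day G-CSF, 7.79 to 8.88 after 2-day G-CSF and 7.37 to 11.6 in sham. For 19 of 20 stromal and osteoblast markers, those tested, the sum was 40.8 to 91.7 after POL5551 and 36.6 to 77 after 5 days of G-CSF. It was 33.1 to 71.1 after 2 days and 26.7 to 40.6 in sham, where Ebf3 and Nes were on no array. Macrophage markers ran otherwise, at 17.2 to 21.7 after POL5551, 16.3 to 27.3 after 5 days, 22.6 to 28.1 after 2 days and 18.7 to 35.7 in sham. Endothelial sums were 23.7 to 28 after POL5551 and 5.43 to 23.3 in sham. Megakaryocyte, neutrophil and lymphoid sums overlapped between POL5551 and sham. The part these markers and the off-tissue level have in the results below was not tested. All 2-day arrays were on 1 slide that held no other group, so that slide and 2 days of treatment cannot be told apart. No 5-day array shared a slide with a sham or 2-day array, so slide and treatment are confounded in those comparisons too. Among the 5-day mice only the second shared a slide with another group, with the third POL5551 mouse. In sorted populations, fewer cells with an RNA and less RNA per cell cannot be told apart either.

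Of the 31 probes, 30 passed the filter, which asked for 3 or more arrays with signal well above background. The signal was well above background on all 12 arrays for 17 probes, which cover 7 of the genes. Igf2, Peg3 and Zim1 had no such probe, and 1 Zim1 probe was well above background on no array. Being well above background does not place a probe above the off-tissue level. On sham 1 that level was -1.61, while Igf2 and Zim1 probes that were well above background read -2.58 and -2.66. In limma's test, adjusted over all 49497 tested probes, no member passed the threshold of 0.05 in any comparison.

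The POL5551 comparison asked what 2 weeks of CXCR4 blockade did to these genes. Of 30 member probes 0 were called, against 1.41% of all tested probes (0.182% higher and 1.23% lower), and the lowest adjusted p among members was 0.0696. At an unadjusted p under 0.05 there was 1 member, against 31.5% of all probes. The groups did not overlap for 2 probes higher after POL5551 (11.4% of all probes) and for 1 lower (22%). The median difference of the members was 0.01, while that of all tested probes was -0.34, so values relative to the bulk of the array are 0.34 higher than the differences given here.

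After 5 days of G-CSF compared with sham, 0 of 30 were called, against 0.0727% of all probes (0.0566% higher and 0.0162% lower), the lowest adjusted p was 0.245, and 1 member had an unadjusted p under 0.05 (11.2% of all probes). The groups did not overlap for 2 member probes higher (5.46%) and 2 lower (7.52%), and the median was 0.03 against -0.06 for all probes. After 2 days compared with sham, 0 of 30 were called, against 0.0222% (0.0182% higher and 0.00404% lower), the lowest adjusted p was 0.28, and 6 had an unadjusted p under 0.05 (8.98%). Without sham 1, 13 did (23.2%). Here 1 probe was higher without overlap (6.24%) and 4 were lower (6.05%), and the median was 0.12 against 0.06. Without sham 1 that median was -0.20, against 0.11 for all probes. Between 5 and 2 days of G-CSF, 0 of 30 were called (0%), the lowest adjusted p was 0.265, and 3 had an unadjusted p under 0.05 (15.3%). In that comparison 5 probes were higher without overlap (14.3%) and 4 were lower (19.9%), and the median was 0.20 against -0.12. The comparisons with sham share the 3 sham arrays, and the G-CSF comparisons share the 2-day or 5-day arrays. POL5551 was not tested against G-CSF, and the share of all probes without overlap between them was not counted.

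**Figure D1:**
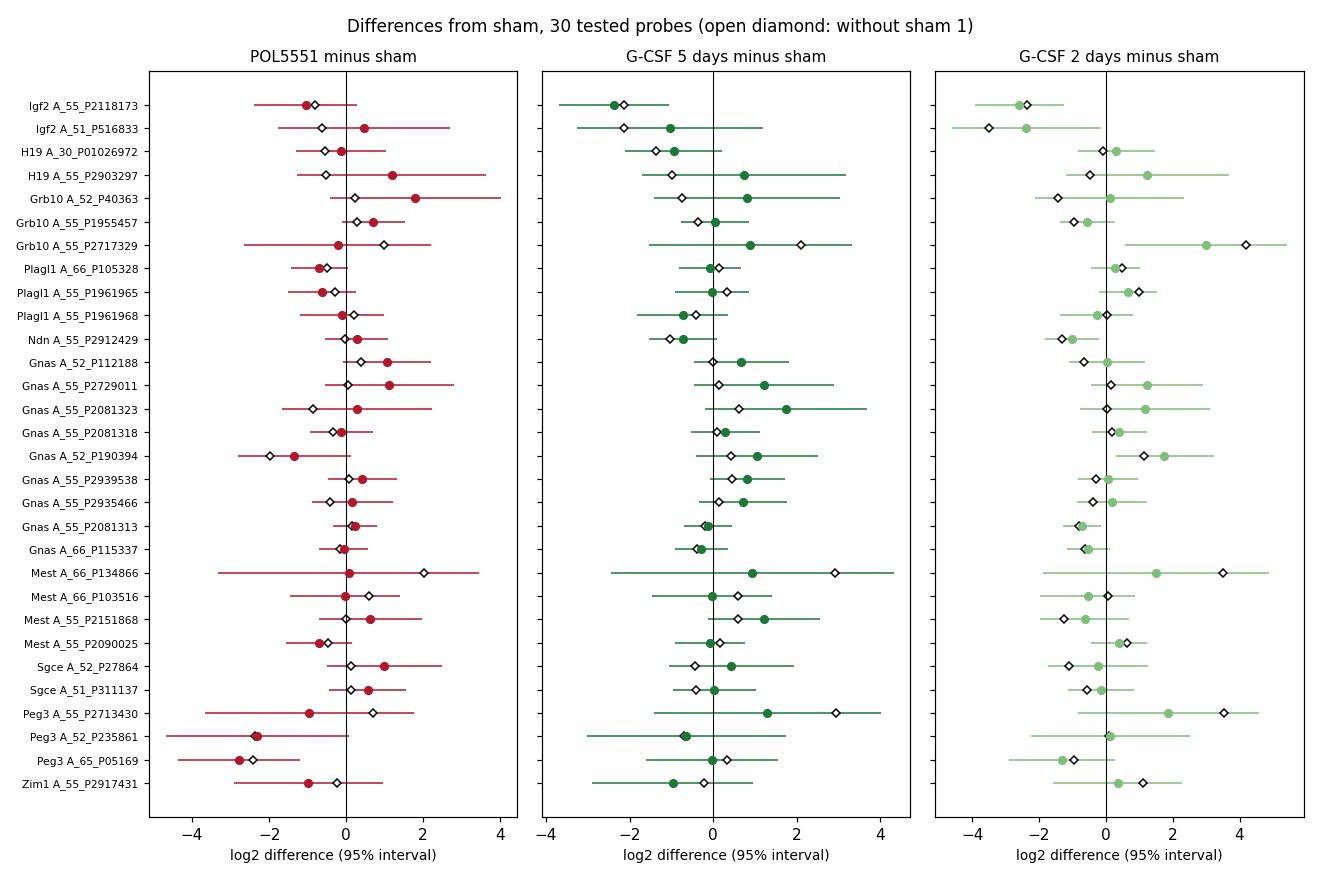
Differences from sham for the 30 tested probes, on the log2 scale along the horizontal axis, with 1 panel each for POL5551, 5 days and 2 days of G-CSF and 1 row per probe. Filled points are limma estimates with 95% intervals and open diamonds are the estimates without sham 1, and the widest gaps between point and diamond belong to probes on which sham 1 lay far from shams 2 and 3.

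The limma F test over the 4 groups called 0 of 30 member probes (0.966% of all probes). Without sham 1 it called 7 member probes, in 4 genes, against 16.4% of all probes. These were the 3 probes of Grb10, the Ndn probe, 2 of the 9 Gnas probes and 1 of the 3 Peg3 probes. Leaving out sham 1 turned the sign of 10 of the 30 differences for POL5551, 11 for 5 days of G-CSF and 8 for 2 days.

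Igf2 was the member with the lowest p after G-CSF. Probe A_55_P2118173 (chr7:149839661-149839720, minus strand) read -4.17, -4.32 and -3.82 after POL5551, -5.88, -5.47 and -4.92 after 5-day G-CSF, -4.34, -6.90 and -5.71 after 2-day G-CSF, and -2.58, -3.95 and -2.62 in sham. All sham and POL5551 arrays were well above background, against none of the 5-day arrays and 1 of the 2-day arrays. Neither G-CSF group overlapped sham, whereas POL5551 did. The difference from sham was -2.38 (SE 0.60, limma adjusted p = 0.245) at 5 days, where the bound was at least 3.87-fold lower, and -2.60 (SE 0.60, adjusted p = 0.28) at 2 days. Without sham 1 these were -2.14 and -2.36. The POL5551 difference was -1.05 (adjusted p = 0.225), with -1.59 on the slide shared with sham 1 and -1.03 on the slide shared with shams 2 and 3.

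The F test of this probe gave an adjusted p of 0.0728, and it passed after quantile normalization (0.0428) and on the authors' deposited values (0.0389). The second Igf2 probe, A_51_P516833 (chr7:149837115-149837174), lies further 3′. It was well above background on 2 of 3 arrays after POL5551, 1 of 3 after 5 days of G-CSF, 0 of 3 after 2 days and 2 of 3 in sham, the exception being sham 1 at -6.22. Its 5-day difference was -1.04 (adjusted p = 0.682), and at 2 days the bound was at least 1.6-fold lower (measured difference -2.39, SE 1.02, adjusted p = 0.522, or -3.49 without sham 1). Both Igf2 probes were thus lower on average in the G-CSF groups, near the limit of detection and without passing the test.

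H19 lies beside Igf2, with 74.9 kb between their nearest probes. Its probe A_30_P01026972 read -0.30, -1.03 and 0.62 after POL5551, -0.89, -1.20 and -1.07 after 5-day G-CSF, 0.34, 0.58 and -0.32 after 2-day G-CSF, and -0.94, -0.32 and 0.93 in sham. The 5-day mice lay close together and below all 2-day mice, while the other groups overlapped widely. The difference between 5 and 2 days was -1.26 (SE 0.53, limma adjusted p = 0.305), and between 5 days and sham it was -0.94 (adjusted p = 0.512). The second H19 probe, A_55_P2903297, was -1.98 ± 0.26 (SD, n = 3) after 5 days and -1.48 ± 0.74 after 2 days, and these overlapped. On that probe sham 1 read -6.15, not well above background, while shams 2 and 3 read -1.16 and -0.84, and its POL5551 difference of 1.18 (adjusted p = 0.431) became -0.53 without sham 1.

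Grb10, the adaptor of insulin and IGF receptors, gave a graded order on its 3′ probe A_55_P1955457 (chr11:11833165-11833224, minus strand). It read 1.26, 1.25 and 1.12 after POL5551, 0.45, 0.45 and 0.75 after 5-day G-CSF, -0.30, -0.14 and 0.29 after 2-day G-CSF, and -0.31, 1.06 and 0.77 in sham. The 3 treated groups did not overlap each other, and POL5551 lay above every sham mouse. How many of all probes separate POL5551 from G-CSF was not counted. The off-tissue level also differed between the 3 treated groups without overlap, and its part was not tested. Sham 1 lay at the level of the lowest 2-day mouse. The difference from sham was 0.70 (SE 0.37, limma adjusted p = 0.2) after POL5551, 1.04 relative to the median of all probes, and it was 0.29 without sham 1. Within slides it was 1.57 beside sham 1 and 0.33 beside shams 2 and 3. After 2 days of G-CSF it was -0.56 (adjusted p = 0.713), or -0.97 (adjusted p = 0.111) without sham 1.

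The 5′ coding probe of Grb10, A_52_P40363, gave the same order of treated means, 1.19 ± 0.36 after POL5551, 0.21 ± 0.70 after 5 days and -0.50 ± 0.36 after 2 days (SD, n = 3). Sham 1 read -3.71 on it, against 0.68 and 1.22 on the other shams. The third probe, A_55_P2717329 (chr11:11849744-11849803), matches another transcript in the array design and ran in the opposite order. It read -4.56, -3.82 and -3.31 after POL5551, -2.36, -3.55 and -2.47 after 5 days, -0.10, -1.39 and -0.58 after 2 days, and -1.28, -6.91 and -2.86 in sham. The 2-day mice were above all other treated mice, while sham 1 lay among them and sham 2 was the lowest array. Its 2-day difference from sham was 2.99 (SE 1.1, adjusted p = 0.48), but 1.38 without sham 2, which was not well above background, and 4.19 without sham 1. Without sham 1 the F test passed for all 3 Grb10 probes, with limma adjusted p of 0.0354, 0.0483 and 0.0476.

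**Figure D2:**
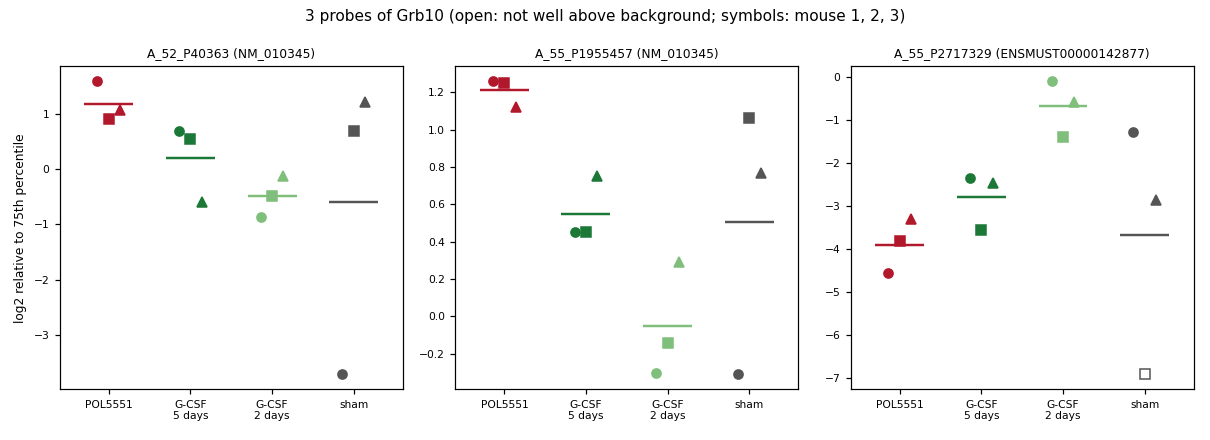
Levels of the 3 Grb10 probes on the 12 arrays, as log2 signal relative to the 75th percentile of the array, with lines for means of 3 mice and open symbols for signal not well above background. The 2-day G-CSF mice are the lowest treated mice on the second probe and the highest on the third. On the first they are the lowest treated group only on average, as the third 5-day mouse, at -0.60, lies among them. Sham 1 lies far below the other shams on the first probe.

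Plagl1, the transcription factor, was read by 3 probes that were well above background on all 12 arrays. The probe with the CCACAG copies read 4.53, 4.12 and 4.34 after POL5551, 5.12, 4.40 and 5.30 after 5-day G-CSF, 6.0, 5.30 and 5.58 after 2-day G-CSF, and 5.66, 4.32 and 4.93 in sham. The 2-day mice were above all POL5551 mice, a separation whose share over all probes was not counted, and both overlapped sham. Differences from sham were -0.63 (SE 0.40, limma adjusted p = 0.261) after POL5551, -0.03 (adjusted p = 0.983) after 5 days and 0.66 (adjusted p = 0.67) after 2 days. Without sham 1 they were -0.29, 0.32 and 1.00 in the same order. On this probe the level followed the off-tissue median across the 12 arrays (r = 0.788, a description).

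Probe A_66_P105328 (chr10:12780390-12780449), at the 5′ side of the locus, gave the same order of treated means, -0.21 ± 0.37 after POL5551, 0.42 ± 0.25 after 5 days and 0.78 ± 0.24 after 2 days, with 0.50 ± 0.43 in sham. The 3′ probe A_55_P1961968 did not: its means were 1.93 ± 0.31, 1.32 ± 0.86, 1.78 ± 0.57 and 2.05 ± 0.63 in the same groups, and all overlapped. POL5551 was thus the lowest group on 2 of the 3 Plagl1 probes and not on the third.

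Ndn, the growth suppressor, was measured by 1 probe (chr7:69494749-69494808, plus strand). It read 2.75, 2.87 and 3.01 after POL5551, 2.00, 2.36 and 1.28 after 5-day G-CSF, 1.69, 1.49 and 1.59 after 2-day G-CSF, and 1.98, 2.74 and 3.09 in sham. Every 2-day mouse was below every sham mouse, and both G-CSF groups were below every POL5551 mouse. For the separation from POL5551 the share of all probes was not counted. The 2-day difference from sham was -1.01 (SE 0.37, limma adjusted p = 0.48), a ratio of 0.495, and it was -1.33 (adjusted p = 0.0933) without sham 1. At 5 days it was -0.72 (adjusted p = 0.485), or -1.04 without sham 1, and after POL5551 it was 0.27 (adjusted p = 0.587), with 0.77 and -0.04 within the slides shared with sham 1 and with shams 2 and 3. The F test without sham 1 gave an adjusted p of 0.0357, against 0.108 with it. The interval of the POL5551 difference, up to 1.09 on the log2 scale, does not show that POL5551 and sham were alike.

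Gnas was read by 9 probes spread along the locus on chromosome 2, and they did not move together. The brightest, A_55_P2081313 (chr2:174171933-174171992, plus strand), lies at the 3′ end of the Gs alpha transcript. It read 3.69, 3.80 and 3.66 after POL5551, 3.38, 3.41 and 3.31 after 5-day G-CSF, 2.84, 2.84 and 2.61 after 2-day G-CSF, and 3.31, 3.46 and 3.68 in sham. The 2-day mice were below all other mice, and the spread within groups was small. The 2-day difference from sham was -0.72 (SE 0.26, limma adjusted p = 0.475). It was -0.81 (adjusted p = 0.116) without sham 1, and it stayed between -0.81 and -0.63 when each mouse was left out in turn.

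The 5-day difference from 2 days on that probe was 0.60 (SE 0.26, adjusted p = 0.313). The neighbouring 3′ probe A_66_P115337 was also below sham without overlap, with differences of -0.29 (adjusted p = 0.692) at 5 days and -0.53 (SE 0.29, adjusted p = 0.624) at 2 days. The coding probe A_52_P112188 read 3.27, 3.32 and 2.96 after POL5551 and 0.77, 2.87 and 2.72 in sham, without overlap. That difference was 1.06 (SE 0.52, adjusted p = 0.175), with 2.50 on the slide shared with sham 1 and 0.53 on the other, and 0.39 without sham 1.

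Of the 5′ probes of the locus, 1 that lies near background gave another order of groups than the brightest 3′ probe. A_52_P190394 (chr2:174125482-174125541) read -5.72, -6.96 and -5.44 after POL5551, -3.32, -4.64 and -2.95 after 5-day G-CSF, -2.52, -3.85 and -2.46 after 2-day G-CSF, and -5.94, -4.17 and -3.97 in sham. It was well above background on no POL5551 array, on all 6 G-CSF arrays and on 2 sham arrays, and every 2-day mouse was above every sham mouse. The 2-day difference was 1.75 (SE 0.67, limma adjusted p = 0.486), and for POL5551, with no array well above background, the bound was at least 1.22-fold lower (measured difference -1.35, adjusted p = 0.18, or -1.97 without sham 1). The F test had an adjusted p of 0.0724, or 0.0312 without sham 1.

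A_55_P2081318 (chr2:174122337-174122396) overlapped between all groups, with means of 0.47 ± 0.51 after POL5551, 0.88 ± 0.47 after 5 days, 0.99 ± 0.24 after 2 days and 0.59 ± 0.36 in sham. A_55_P2729011 (chr2:174154248-174154307), further along the locus, had means of -1.42, -1.32 and -1.31 after POL5551, 5 days and 2 days, which overlapped. On it sham 1, at -4.70 and not well above background, lay below all other arrays. Probe A_55_P2081323 was above sham without overlap at 5 days, by 1.75 (SE 0.88, adjusted p = 0.479), but sham 1 read -5.92, and the difference was 0.61 without that array. The 2 cDNA clone probes, A_55_P2939538 and A_55_P2935466, were highest at 5 days, at 1.05 ± 0.19 and 0.83 ± 0.14, against 0.29 ± 0.28 and 0.31 ± 0.32 at 2 days, without overlap between these groups. Their 5-day differences from 2 days were 0.76 (adjusted p = 0.378) and 0.52 (adjusted p = 0.565).

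**Figure D3:**
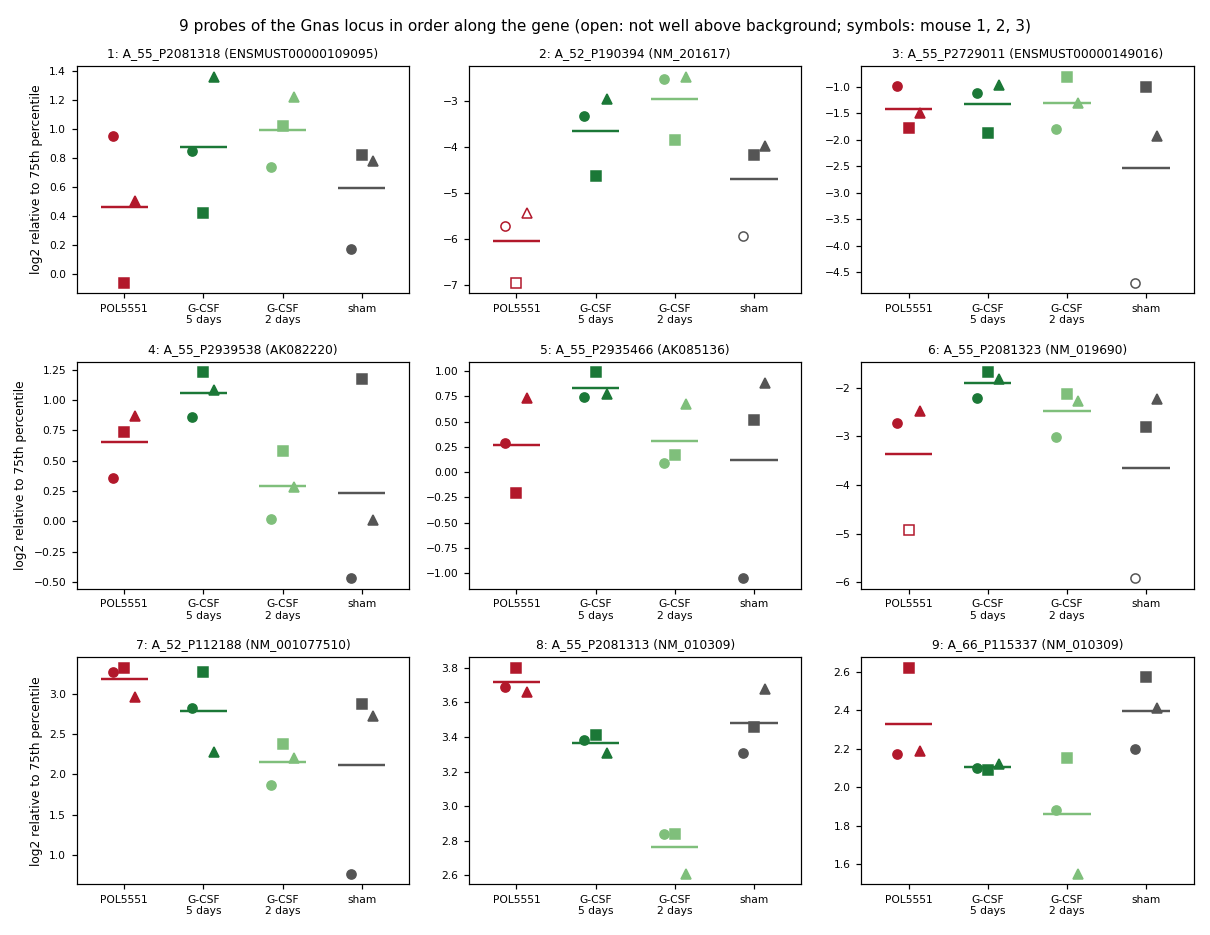
Levels of the 9 Gnas probes on the 12 arrays in order along the locus, as log2 signal relative to the 75th percentile of the array, with lines for means of 3 mice and open symbols for signal not well above background. The 2-day G-CSF mice are lowest on probe 8, at 2.61 to 2.84, and highest on average on probe 2, where no POL5551 array was well above background.

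Mest, of the hydrolase fold, had a low 3′ probe, A_55_P2090025 (chr6:30697385-30697444, plus strand). It read -3.23, -3.15 and -3.22 after POL5551, -2.15, -3.04 and -2.51 after 5-day G-CSF, -1.76, -2.13 and -2.46 after 2-day G-CSF, and -2.01, -3.21 and -2.27 in sham. The POL5551 mice were nearly equal and below both G-CSF groups, though sham 2 lay among them. How many of all probes show such a separation from G-CSF was not counted. The difference from sham was -0.70 (SE 0.38, limma adjusted p = 0.209), or -0.46 without sham 1.

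The coding probe of Mest further 5′ gave another order. It read -4.17, -2.97 and -3.23 after POL5551, -3.12, -2.43 and -3.03 after 5 days, -4.02, -5.72 and -4.43 after 2 days, and -5.34, -3.71 and -3.18 in sham. The 5-day mice were above both the 2-day and the sham mice. The 5-day difference was 1.86 from 2 days (SE 0.61, adjusted p = 0.265), the lowest p of the 30 member probes between the G-CSF courses, and 1.22 from sham (SE 0.61, adjusted p = 0.473). The difference from sham was 0.59 without sham 1, which was not well above background. The remaining Mest probes match other transcripts in the array design. A_66_P103516 had no group that stood apart, with means from -3.13 to -2.58. A_66_P134866 ran from -6.58 on sham 2 to -0.06 on sham 1.

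Sgce, epsilon-sarcoglycan, was well above background on all arrays with both probes. A_51_P311137 (chr6:4624457-4624516, minus strand) read 1.08, 1.66 and 0.84 after POL5551, 1.20, 0.28 and 0.49 after 5-day G-CSF, 0.70, 0.52 and 0.24 after 2-day G-CSF, and -0.22, 0.62 and 1.50 in sham. Sham held both the lowest mouse and one of the highest, so every group overlapped it. Differences from sham were 0.56 (SE 0.45, limma adjusted p = 0.364) after POL5551, 0.02 (adjusted p = 0.989) after 5 days and -0.15 (adjusted p = 0.96) after 2 days. Without sham 1 they were 0.13, -0.40 and -0.58 in the same order. The coding probe gave the same order of treated means, 0.48 ± 0.58, -0.07 ± 0.66 and -0.75 ± 0.33 for POL5551, 5 days and 2 days.

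Peg3, a zinc finger gene, was close to the limit of detection. Its probe A_65_P05169 (chr7:6657078-6657137, minus strand) read -7.18, -6.90 and -7.03 after POL5551, -4.16, -4.73 and -3.94 after 5-day G-CSF, -4.66, -5.33 and -6.72 after 2-day G-CSF, and -3.53, -3.14 and -6.07 in sham. No POL5551 array was well above background, against 2 of 3 arrays in the 5-day group, none in the 2-day group and 2 of 3 in sham. Every POL5551 mouse was below every sham mouse. The difference was -2.79 (SE 0.72, limma adjusted p = 0.0696), the lowest adjusted p of any member in any comparison with sham, and the bound was at least 1.65-fold lower. It was -3.65 and -2.29 within the slides, -2.43 without sham 1 (adjusted p = 0.208) and -3.70 without sham 3 (adjusted p = 0.0138). The lowest limma adjusted p of any member for POL5551 was 0.328 with slide as a fixed block and 0.816 with the off-tissue covariate. The POL5551 values of this probe were all flagged as surrogates for low signal, so their closeness does not measure the spread between mice.

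The other Peg3 probes were well above background on no POL5551 array either. A_52_P235861 (chr7:6658774-6658833) was above background on 2 of 3 arrays after 5 days, 3 of 3 after 2 days and 2 of 3 in sham, with a POL5551 difference of -2.31 (SE 1.08, adjusted p = 0.166) and a bound of at least 2.64-fold lower. A_55_P2713430 (chr7:6674720-6674779) was above background on sham 1 alone among the shams, at -2.00, and on all 2-day arrays. Without sham 1 its 2-day difference from sham was 3.52 (adjusted p = 0.0911), against 1.87 (adjusted p = 0.71) with it.

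Zim1, whose nearest probe lies 27.3 kb from that of Peg3, was well above background on 6 of 12 arrays with probe A_55_P2917431 (chr7:6629713-6629772, minus strand). It read -7.23, -4.18 and -3.95 after POL5551, -4.72, -5.78 and -4.82 after 5-day G-CSF, -3.34, -4.69 and -3.34 after 2-day G-CSF, and -2.66, -4.83 and -4.95 in sham. Sham 1 was the highest array and the first POL5551 mouse the lowest, and all groups overlapped sham. The 5-day mice were below the 2-day mice without overlap, a difference of -1.32 (SE 0.88, limma adjusted p = 0.446). Its other probe, A_55_P1997320, was not well above background on any array.

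**Figure D4:**
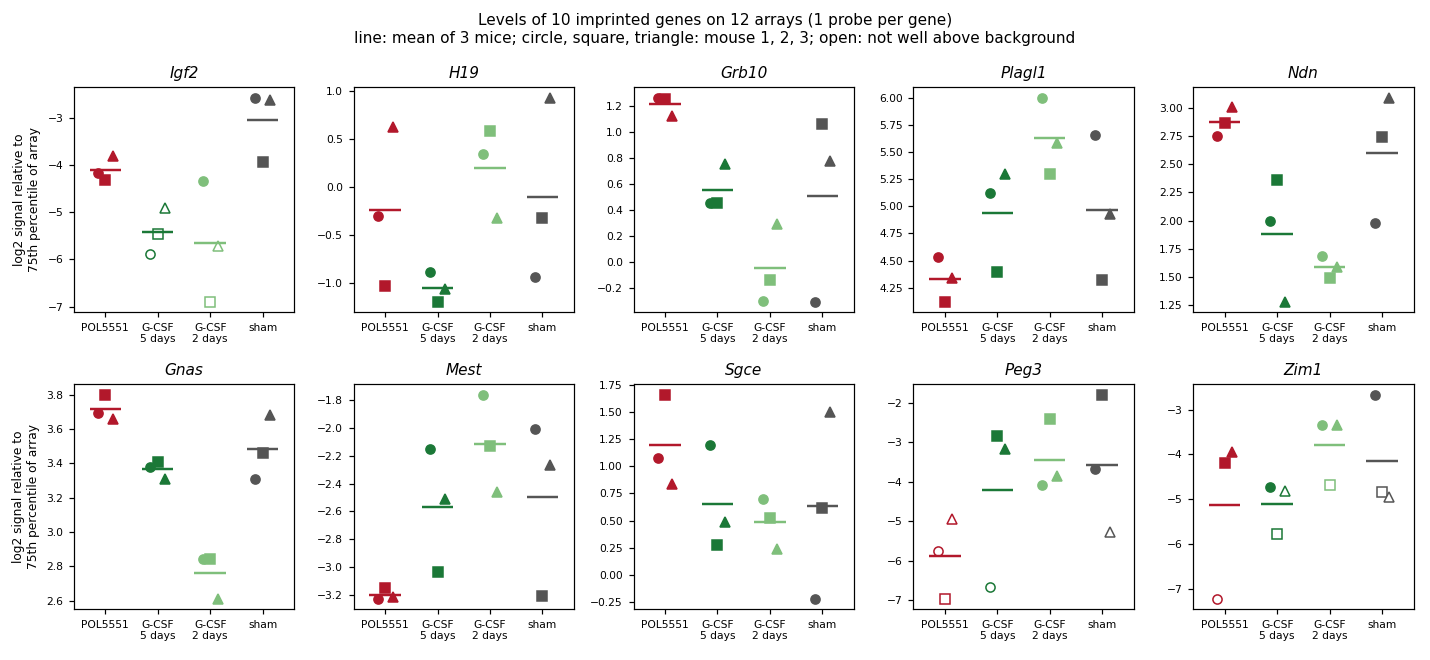
Levels of the 10 genes on the 12 arrays, each by the probe with the highest mean, as log2 signal relative to the 75th percentile of the array, with lines for means of 3 mice and open symbols for signal not well above background. The vertical scale differs between panels, the 2-day G-CSF mice lie below every sham mouse for Igf2, Ndn and Gnas, and the sham mice are the most spread group for several genes.

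Across the 17 probes well above background on all 12 arrays, the order of the group means differed between genes. The 2-day group was lowest for 7 probes (27.5% of all such probes on the array) and highest for 5 (33.8%). The probes on which it was lowest were those of Ndn, both of Sgce, 1 of Grb10, 2 of Gnas and 1 of Mest. POL5551 was highest for 7 (34.5%) and lowest for 4 (46.2%), 5 days of G-CSF was highest for 2 (11.1%) and lowest for 2 (8.36%), and sham was highest for 3 (20.6%) and lowest for 4 (17.9%).

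For 5 genes a transcript had a 5′ and a 3′ probe. The level on the 5′ probe minus that on the 3′ probe was lower on sham 1 than on the other shams for Grb10, Mest and Sgce, but not for Plagl1 and Igf2. On sham 1 it was -3.40 for Grb10, against -0.39 and 0.45 on shams 2 and 3. It was -3.33 for Mest, against -0.50 and -0.92 on the other shams, and the 2-day mice read -2.25, -3.59 and -1.97. It was -2.03 for Sgce, against -0.72 and -0.68 on them, while the second POL5551 mouse read -1.84 and the first 2-day mouse -1.73. For Plagl1 sham 1, at 2.97, lay between the other shams (2.28 and 3.50), and for Igf2 it was higher, at 3.65 against -0.58 and -0.12. The first 2-day mouse read 2.53 for Igf2. On both of these arrays the 3′ probe of Igf2 was flagged as a surrogate for low signal, so the size of these Igf2 values is set by the floor. The 5′ probe of Mest was not well above background on sham 1 either. Across 4402 transcripts with a pair of probes at least 500 bases apart, the median of this quantity relative to its mean over the 12 arrays was 0.00 on sham 1, and the array furthest from 0 was the second POL5551 mouse at -0.44. This comparison was chosen after the values had been seen.

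The other imprinted genes were described from a list of 63, of which 61 were tested. None was called in any comparison, with medians of -0.39 for POL5551, 0.00 for 5 days and -0.01 for 2 days of G-CSF minus sham, and -0.15 for 5 minus 2 days, against -0.34, -0.06, 0.06 and -0.12 over all probes. Without sham 1 those from sham were -0.05, -0.02 and 0.10, against -0.17, -0.02 and 0.11 over all probes. The largest differences at 2 days among probes well above background on all arrays were those of Dlk1, 3.47 (SE 0.65, limma adjusted p = 0.151), a paternally expressed Notch-like ligand, and its neighbour Meg3, a non-coding RNA, 2.00 (SE 0.39, adjusted p = 0.173). In the other direction stood Cdkn1c, the cell cycle inhibitor p57, at -1.78 (SE 0.42, adjusted p = 0.283), and Phactr2 at -1.13 (SE 0.31, adjusted p = 0.347). Among such probes, at 5 days Dlk1 was at 2.91, Meg3 at 1.90, Cdkn1c at -1.39 and Kcnq1ot1, a non-coding RNA, at -1.27, with adjusted p from 0.148 to 0.318. For POL5551 the largest among such probes were Tspan32 at 1.43, Dlk1 at 1.42, Inpp5f at -2.24 and Usp29 at -1.65, with adjusted p from 0.0742 to 0.16. Dcn at 3.27, Rasgrf1 at -2.97 and Kcnk9 at -2.72, chosen after their values were seen, were further from 0 for POL5551 than any of these. They were well above background on only 10, 4 and 11 of the 12 arrays. Between 5 and 2 days, again among probes well above background on all arrays, they were Commd1 at 0.86, Ube3a at 0.84, Inpp5f at -1.30 and Kcnq1 at -1.12, with adjusted p from 0.291 to 0.382.

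Of 30 genes of the IGF axis 29 were tested and none was called, with medians of 0.31 for POL5551, -0.02 for 5 days and -0.05 for 2 days minus sham, and 0.44 for 5 minus 2 days, against -0.34, -0.06, 0.06 and -0.12 over all probes. Without sham 1 those from sham were 0.05, -0.04 and 0.18. Among probes well above background on all 12 arrays, the difference furthest from 0 was that of Igfbp7, an IGF-binding protein family member, at 3.12 (SE 1.01, limma adjusted p = 0.098) after POL5551 and 2.64 (adjusted p = 0.389) after 5 days. Outside that limit Igfbp5, well above background on 10 of 12 arrays and chosen after its values were seen, was at 6.19 (SE 1.47, adjusted p = 0.0598) after POL5551 and 5.67 (adjusted p = 0.258) after 5 days. Within it, Igfbp4 was at 1.52, Igfbp2 at -1.30 and Grb14 at -0.79 after POL5551. After 5 days Igfbp4 was at 1.17, Igf2bp2 at -1.23 and Igf2r, the imprinted receptor that clears Igf2, at -1.06 (adjusted p = 0.389). At 2 days Irs3 was at 1.85 (SE 0.59, limma adjusted p = 0.428) and Igfbp7 at 1.29. In the other direction Pik3r1, the regulatory subunit of PI3-kinase, was at -1.81 (SE 0.42, adjusted p = 0.281) and Igf1 at -1.43 (adjusted p = 0.557). Between 5 and 2 days Igfbp4 was at 1.36, Igfbp7 at 1.35, Irs3 at -1.82 and Igfals at -0.78.

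Of 35 genes of Gs and cyclic AMP signalling, the pathway of Gnas, 34 were tested and none was called. Their medians were 0.29 for POL5551, 0.19 for 5 days and -0.05 for 2 days minus sham, and 0.22 for 5 minus 2 days, against -0.34, -0.06, 0.06 and -0.12 over all probes. Without sham 1 those from sham were 0.09, 0.01 and -0.28. Crem, a transcription factor of the cyclic AMP response, came nearest to the threshold, at -2.61 (SE 0.57, limma adjusted p = 0.0503) after POL5551 and -1.28 (adjusted p = 0.437) after 5 days. Prkaca, the catalytic subunit of protein kinase A, was at 1.82 (SE 0.83, adjusted p = 0.159) after POL5551 but 0.63 without sham 1. Pde4b was at 1.30 after POL5551. After 5 days Prkaca was at 1.11 (-0.08 without sham 1), Pde4b at 0.89 and Prkar2a at -0.68. Adora2a, a Gs-coupled adenosine receptor, was at 1.25 (adjusted p = 0.486) after 2 days and at -1.03 (adjusted p = 0.161) after POL5551. Also at 2 days, Adcy9 was at 0.99, Gng2 at -1.04 and Prkar2b at -0.68. Between 5 and 2 days Pde4b was at 0.99, Prkaca at 0.85, Adcy9 at -1.28 and Adora2a at -1.08.

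The genes whose levels were most like those of the 3 brightest members were sought among 14686 genes over the 12 arrays, as a description of arrays that share the same RNA samples and off-tissue level. For Plagl1 they were Scube3 (r = 0.975), Prdm10 (0.973) and Vps29 (0.973). For Gnas they were Lnpep (0.958), F2r (0.954) and Rest (0.952). For Ndn they were Phactr2 (0.959), Pygm (0.946) and Ap4s1 (0.945). The members' own correlation with the off-tissue median was 0.788 for Plagl1, -0.695 for Gnas and -0.607 for Ndn.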

How the data were processed

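RNA of sorted stem cells from 12 mice was labelled with Cy5 and hybridised to 1-colour Agilent arrays, per the labels. Per the file headers, the deposited scanner files hold a linear intensity for each spot, written by Agilent Feature Extraction 11.5.1.1 (named in the submitters' processing notes too), and the arrays were not normalized to each other. The value table deposited by the authors holds intensity for 49665 probes with a median of 1080 in every column, and how it was normalized is not given in the sources used here. Of its columns, 5 match the scanner file of another mouse of the same group, so mouse numbers here are those of the scanner files.

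Levels were log2 processed signals minus the array's 75th percentile over probes other than controls, with repeated spots averaged. Outlier spots (60 to 267 per array, none in members) were left out, and none was saturated. Probes well above background on at least 3 of 12 arrays were tested, less 2 with no value in a group, leaving 49497. A group-means model of all 12 arrays was fitted with limma 3.58.1 in R 4.3.3 (8 residual and 3.18 prior degrees of freedom), two-sided, with Benjamini-Hochberg adjustment over all tested probes and a threshold of 0.05. The procedure was tested on simulated data. The probe with the highest mean represents a gene. A bound (at least N-fold) sets the brighter group's mean against, per dim array, the higher of the lowest level well above background and the probe's own level. Coordinates are those of the array design, and no genome was used. Of the lists, the 2 genes with the largest difference in each direction were named where none was called, among probes well above background on all arrays. The gene members and lists were chosen with earlier results of these data known.

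Mouse numbers were not used to pair the arrays. Deviations of same-numbered mice correlated at -0.30 to 0.25 over 18 pairs (median 0.06), of which 7 were above 0.1. For differently numbered mice the range was -0.27 to 0.42 over 36 pairs (median -0.02), of which 9 were above 0.1. These ranges overlap, and they cannot show that a pairing was absent. Other settings were quantile normalization, normexp (offset 50) with quantile normalization, median scaling, the authors' values, other filters, 1 probe per gene, slide and mouse number as blocks, the off-tissue level as a covariate, and each mouse left out.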

Additional observations from a re-analysis of the deposited data

How the results depend on the processing

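No member probe passed the limma test in any pairwise comparison under the other settings, apart from Peg3 A_65_P05169 in POL5551 minus sham without sham 3. Leaving out single arrays, sham or treated, moved the counts widely. For POL5551 the count of all probes called ran from 83 to 4527 (83 without POL5551 mouse 1, 105 without sham 1, 1904 without sham 2 and 4527 without sham 3). For 5 days of G-CSF minus sham it ran from 2 (without 5-day mouse 2) to 138 (without sham 3). For 2 days it ran from 0 (without sham 2 or without 2-day mouse 3) to 208 (without sham 1), and for 5 minus 2 days from 0 to 35. The F test called 88 to 8115 probes, and 0 to 7 members. Member calls in POL5551 minus sham ranged from 0 to 1.

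For POL5551 the count over all probes, 698, became 149 with quantile normalization, 21 with normexp, 317 with median scaling, 123 on the authors' values, 1865 among probes well above background on all 12 arrays, 207 with the replicate block, 0 with slide as a fixed block and 0 with the off-tissue covariate, and the cause was not tested. Of calls, 12.9% were higher after POL5551, against 36.9% with quantile normalization, 38.1% with normexp, 33.1% with median scaling and 40.7% on the authors' values. The median of all probes, -0.34, became -0.01, -0.02, 0.06 and 0.00 under these. For 5 days minus sham, 36 became 61 with quantile normalization, 22 with 1 probe per gene, 21 with the replicate block, 0 with slide as a fixed block and 10 with the covariate. The share of higher calls was 77.8%, against 67.2% with quantile normalization and 91.7% with normexp. For 2 days minus sham, 11 became 20 with quantile normalization, 6 among probes on all 12 arrays and 0 with the replicate block, and the higher share of 81.8% was 100% with normexp. For 5 minus 2 days, 0 became 6 with quantile normalization. The F count, 478, became 222 with quantile normalization, 50 with normexp, 269 with median scaling, 213 on the authors' values, 3421 on all 12 arrays, 186 with the replicate block and 33 with the covariate. The F test called 1 member with quantile normalization and 1 on the authors' values, Igf2 in both. By the labels, the arrays of a replicate block share only a mouse number.

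Of 408 recomputed gene differences, 376 kept their direction and 32 reversed, none of them past the threshold. For POL5551 minus sham, H19 became 0.01 with quantile normalization, 0.01 with normexp, 0.28 with median scaling and 0.01 on the authors' values, and Zim1 became 0.01 with normexp. With the off-tissue covariate, Ndn became -0.53, Grb10 -0.13, Plagl1 0.18, Zim1 1.92 and Sgce -0.49. For 5 days minus sham, quantile normalization, normexp, median scaling, the authors' values and the covariate gave 0.35, 0.23, 0.13, 0.33 and 0.38 for Plagl1, and 0.12, 0.02, 0.09, 0.13 and 0.19 for Mest. Gnas became 0.05 with normexp, 0.04 with median scaling and 0.04 with slide as a fixed block, Sgce -0.06 with normexp and -0.50 with the covariate, Grb10 -0.38 and Zim1 0.49 with the covariate. For 2 days minus sham, Peg3 became -0.01 with normexp and -0.03 on the authors' values. For 5 minus 2 days the covariate gave -0.21 for Ndn, 0.47 for Zim1 and -0.47 for Sgce.

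With each mouse left out, 24 of 480 gene differences reversed. The ranges were -0.56 to 0.40 for H19, -0.04 to 0.52 for Ndn and -1.56 to 0.08 for Zim1 after POL5551. For 5 days minus sham they were -0.37 to 0.32 for Grb10, -0.42 to 0.17 for Mest, -1.48 to 0.58 for Peg3, -0.35 to 0.32 for Plagl1 and -0.40 to 0.46 for Sgce. For 2 days minus sham they were -0.10 to 0.83 for H19, -0.71 to 1.03 for Peg3, -0.58 to 0.28 for Sgce and -0.04 to 1.1 for Zim1. For 5 minus 2 days they were -0.40 to 0.88 for Igf2, -1.46 to 0.45 for Peg3 and -0.10 to 0.36 for Sgce. Slide as a fixed block could not be fitted for the 2-day group. For 5 days minus sham that fit rested on the slide that the second 5-day mouse shared with the third POL5551 mouse. Igf2, Peg3, Zim1 and Gnas A_52_P190394 lie near background, where a difference from a group with no array well above it is only a bound, and groups of 3 were too small for a check on outlying mice.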
